A study of Homo sapiens with 24 samples.

Results

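The subject is the interaction of 2 agents in wild-type (WT) HT-29 cells, a line of epithelial cells from a human colon cancer: how far the response to TNFα with 7FTA departs from the separate responses to TNFα and to 7FTA. It was taken as the 7FTA effect in TNFα-treated cells minus the 7FTA effect in cells without TNFα, on the log2 scale. A negative value means that the combination gave less RNA than the separate fold changes multiplied together, and a positive value means that it gave more. The members are the 12 WT libraries of the 24 in the series, and every gene that passed the filter on low counts was tested.

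The 4 WT groups of 3 libraries were cells kept for 8 h in medium with 0.1% DMSO, with 50 µM 7FTA (7-fluorotryptamine), with 10 ng/mL TNFα, or with TNFα and 7FTA at those doses. The other 12 libraries are the same 4 treatments of cells carrying a GPRC5A knockout (KO), and they serve here as a comparison. For the 3 groups without a stated DMSO content the labels leave the vehicle unsaid, so vehicle and agent cannot be told apart if they lacked it. The labels do not say whether the 3 libraries of a group came from separate cultures or whether the knockout line is 1 clone, so the p-values reflect how these libraries vary, which may be technical. The knockout libraries still held GPRC5A RNA, at 67.3, 71.7 and 70.4 CPM (counts for a common library size) with DMSO against 202, 206 and 213 CPM in WT cells. All libraries without TNFα also come before those with TNFα in the running numbers of the table, so that order and TNFα cannot be told apart.

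TNFα binds receptors on the cell surface that release the transcription factor NF-kB from its inhibitors in the cytoplasm. In gut epithelium NF-kB then turns on inhibitors of its own pathway, survival factors, chemokines and the machinery that displays peptides to T cells. 7FTA is a tryptamine with a fluorine on the indole ring. Indoles of this kind are studied as ligands of the aryl hydrocarbon receptor (AhR), which induces enzymes such as CYP1A1 that oxidise foreign compounds. NRF2 is a separate regulator, of the cell's defence against oxidants and reactive aldehydes, and shares a few enzymes with AhR.

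Total counts in the 12 WT libraries ran from 16975783 to 26901257, and reads of mitochondrially encoded genes made up 0.604% to 1.15% of them. The epithelial markers were all detected, with a summed level of 17386 to 19513 CPM. Of the 9 immune markers CD3D was at 0, and LYZ, the lysozyme that gut epithelium can also make, made up at least 99.2% of the list's summed level of 1539 to 1702 CPM. Endothelial and fibroblast lists reached at most 1.55 and 2.48 CPM, with CDH5 and COL1A2 at 0. The 3 neuronal markers were all at 0.

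The sequences that introduce the result are promoters of 4 genes with a negative interaction: BIRC3, an inhibitor of apoptosis, NFKBIA, the inhibitor that holds NF-kB in the cytoplasm, SDC4, a cell-surface proteoglycan, and TAPBP, a chaperone that loads peptides onto MHC class I. They were chosen because each holds a match to the NF-kB motif. They are RefSeq promoters on GRCh38.p14, 250 bases that end just before the start site, written 5′ to 3′ along the gene's strand with the match in capitals. BIRC3 is at chr11:102317234-102317483 on the plus strand, NFKBIA at chr14:35404750-35404999, SDC4 at chr20:45348425-45348674 and TAPBP at chr6:33314079-33314328, the last 3 on the minus strand.
BIRC3: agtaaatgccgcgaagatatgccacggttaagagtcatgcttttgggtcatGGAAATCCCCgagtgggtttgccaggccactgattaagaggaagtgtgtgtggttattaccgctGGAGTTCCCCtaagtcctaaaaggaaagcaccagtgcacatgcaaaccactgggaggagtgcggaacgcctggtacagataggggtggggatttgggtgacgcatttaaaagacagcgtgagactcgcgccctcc
NFKBIA: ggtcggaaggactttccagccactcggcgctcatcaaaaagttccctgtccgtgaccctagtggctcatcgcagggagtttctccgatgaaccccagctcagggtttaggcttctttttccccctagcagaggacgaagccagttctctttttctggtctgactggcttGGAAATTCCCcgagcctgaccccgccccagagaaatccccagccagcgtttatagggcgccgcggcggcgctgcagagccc
SDC4: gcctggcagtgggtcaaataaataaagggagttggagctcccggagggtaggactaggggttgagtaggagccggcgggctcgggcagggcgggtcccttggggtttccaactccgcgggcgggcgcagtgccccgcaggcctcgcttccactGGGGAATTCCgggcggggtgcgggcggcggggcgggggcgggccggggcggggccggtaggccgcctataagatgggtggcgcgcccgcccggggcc
TAPBP: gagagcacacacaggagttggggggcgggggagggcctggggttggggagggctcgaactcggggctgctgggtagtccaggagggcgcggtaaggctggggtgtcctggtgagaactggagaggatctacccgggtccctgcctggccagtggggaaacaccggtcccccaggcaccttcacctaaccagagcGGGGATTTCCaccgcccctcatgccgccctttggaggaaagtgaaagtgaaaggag

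The motif was the 10-letter NF-kB consensus, searched on both strands. It was present in 9.57% of all 27305 RefSeq promoters of this length and in 11.8% of the 10068 that belong to tested genes. Of the 28 genes with a negative interaction described next, 22 had a promoter entry and 7 of those held a match (31.8%): BIRC3 with 2 matches, ERAP1, LCN2, NFKBIA, SDC4, SMAD3 and TAPBP. PTGS2 and MMP7, with the smallest adjusted p of the interaction, held 0. TNFα alone raised 26 of the 28, and the share with a match among all TNFα-raised genes was not taken. The 31.8% is therefore not shown to be particular to genes of the interaction. Of the 11 genes with a positive interaction, 9 had an entry and 1 of them, EPHX1, held a match (11.1%). AKR1B10 and ALDH3A1 had no entry, so their promoters were not searched for any motif. The core of the antioxidant response element through which NRF2 acts, TGACNNNGC on either strand, was in 12.4% of the promoters of tested genes, in 1 of the 22 (4.55%) and in 1 of the 9 (11.1%). The core of the AhR response element, GCGTG on either strand, was in 45.2% of the promoters of tested genes, in 6 of the 22 (27.3%) and in 2 of the 9 (22.2%). A match is a description of these letters, and no binding was measured.

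The interaction passed the test for 39 of 14059 genes, 0.277% of those tested (adjusted p under 0.05, edgeR's quasi-likelihood test with Benjamini-Hochberg adjustment). It was negative for 28 genes, 0.199% of the tested genes, and positive for 11, 0.0782%. The negative ones were from TNFα-induced genes for the most part, with BIRC3, PTGS2, MMP7, KRT17, SDC4 and LCN2 among them. The positive ones included AKR1C2, AKR1C1, AKR1B10 and ALDH3A1, enzymes that reduce or oxidise aldehydes or ketones. The epoxide hydrolase EPHX1 and the iron genes FTL and TFRC were also positive. All 39 interactions were moderate in size. The negative values ran from -0.81 to -0.20 on the log2 scale, a combination 1.15 to 1.75-fold below the product of the separate fold changes, with a median of -0.37. The positive values ran from 0.20 to 0.91, or 1.15 to 1.88-fold above it, with a median of 0.30, and 0 genes reached 2-fold. Over all tested genes the median was 0.00 and 49.5% had a negative sign.

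**Figure D1:**
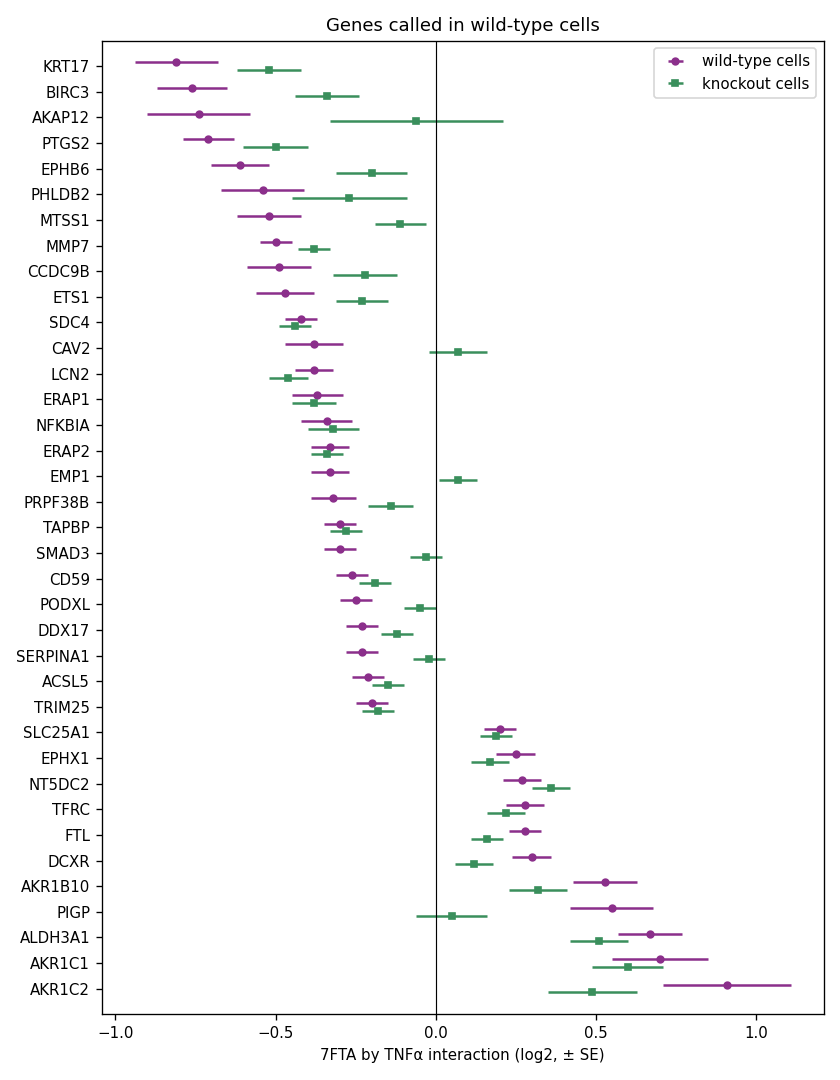
Genes named in the text whose interaction of 7FTA and TNFα passed the test in WT cells, on a log2 scale; circles are WT cells, squares are knockout cells, and bars are standard errors. The WT values run from -0.81 for KRT17 to 0.91 for AKR1C2, and the knockout value lies on the other side of 0 for CAV2 and EMP1.

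The same 4 groups give the separate effects, which share libraries with the interaction and are given as a description. Of the 28 genes with a negative interaction, TNFα alone raised 26, and the other 2, DDX17 and PRPF38B, were not called. 7FTA without TNFα raised 11 of the 28 and lowered 0, and 7FTA added to TNFα lowered 20 and raised 0. For 22 of the 28 the 7FTA estimate was above 0 without TNFα and below 0 with it, and for 6 it was below 0 in both. Of the 11 genes with a positive interaction, TNFα alone lowered 9, raised AKR1C1 and left AKR1C2 at a log2 difference of 0.00. 7FTA added to TNFα raised 10 of the 11, and 7FTA without TNFα raised 3 and lowered 1. For 7 of the 11 the 7FTA estimate was above 0 in both settings, and for 4 it was below 0 without TNFα and above 0 with it. Over all genes, 7FTA alone changed 288 (203 higher, 1.44%, and 85 lower, 0.605%), which is 2.05% of those tested. 7FTA added to TNFα changed 779 (421 higher, 2.99%, and 358 lower, 2.55%), or 5.54%, and TNFα alone changed 5395, or 38.4% (19.5% higher, 18.9% lower). TNFα in the presence of 7FTA changed 4785, or 34.0% (17.7% higher, 16.3% lower). A larger count in 1 setting than in another is not a test of their difference, which the 39 genes are.

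**Figure D2:**
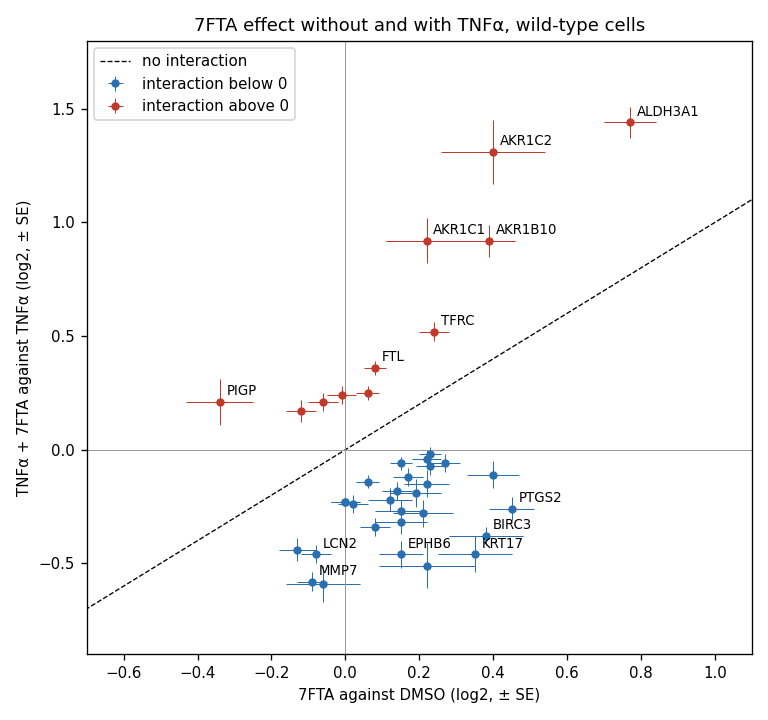
The log2 effect of 7FTA without TNFα (horizontal axis) and with TNFα (vertical axis) in WT cells, for the 39 genes of the interaction, coloured by its sign; bars are standard errors. Genes of the negative interaction lie below the diagonal, 22 of 28 where 7FTA is above 0 alone and below 0 with TNFα, and genes of the positive interaction lie above it.

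The TNF and NF-kB target list, which runs from NF-kB subunits and their inhibitors to induced effectors, had 32 tested members of 40. Of these, 6 had a called negative interaction (BIRC3, PTGS2, MMP7, SDC4, LCN2 and NFKBIA) and 0 a positive one, against 0.277% called over all genes. The sign was negative for 29 of the 32 (90.6%), and the list's median was -0.23. Errors were wide for TRAF1 (-1.76 ± 0.68), C3 (-2.39 ± 0.86), LTB (-0.79 ± 0.90) and IL32 (-0.83 ± 0.40), and IL32 had hardly any counts without TNFα. The sign count and the median are thus a description of fitted values. TNFα alone raised all 32, with a median log2 rise of 1.85, and TNFα in the presence of 7FTA raised 31, with a median of 1.39. 7FTA added to TNFα lowered 19 of the 32, and 7FTA alone raised 2. All but 1 of the list were thus still raised by TNFα in the presence of 7FTA. Of all tested genes, TNFα raised 19.5% alone and 17.7% in the presence of 7FTA. For 7FTA, the share lowered on top of TNFα was 2.55% and the share raised alone was 1.44%.

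BIRC3 (ENSG00000023445, GRCh38 chr11:102317450-102339403, plus strand) encodes cIAP2, which binds caspase-activating complexes and the TNF receptor complex. Its level was 5.22, 5.01 and 4.93 CPM with DMSO, 6.75, 6.23 and 6.61 with 7FTA, 140.3, 140.4 and 149 with TNFα, and 116, 109 and 105 with both agents. The groups did not overlap: 7FTA was above DMSO in cells without TNFα and below TNFα alone in cells with it. TNFα raised BIRC3 28.3-fold without 7FTA and 16.7-fold with it. The interaction was -0.76 ± 0.11 (log2 ± SE, adjusted p = 2.18e-05, edgeR's quasi-likelihood test), and it stayed between -0.80 and -0.72 when any 1 WT library was left out. If the 2 changes had added in CPM the level with both agents would have been 145 CPM, and if the fold changes had multiplied it would have been 185. The measured level was 109.9 ± 5.41 CPM (SD, n = 3), below either.

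PTGS2 (ENSG00000073756, chr1:186671791-186680427, minus strand) encodes cyclooxygenase-2, the inducible enzyme of prostaglandin synthesis. It stood at 29.4, 26.6 and 33.3 CPM with DMSO, 42.9, 39.6 and 40.4 with 7FTA, 202, 203 and 203 with TNFα, and 175, 167 and 167 with both. As for BIRC3, the 7FTA libraries all lay above those with DMSO, and the combination all lay below TNFα alone. 7FTA raised PTGS2 1.37-fold in cells without TNFα (adjusted p = 5.15e-07) and gave a log2 difference of -0.26 ± 0.05 in cells with TNFα (adjusted p = 2e-04, both by edgeR's quasi-likelihood test). The interaction was -0.71 ± 0.08 (adjusted p = 1.94e-08).

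MMP7 (ENSG00000137673, chr11:102520508-102530753, minus strand) is a matrix metalloproteinase secreted by epithelium. Its levels were 142, 133 and 133 CPM with DMSO, 128, 125 and 130.0 with 7FTA, 970.1, 982 and 1062 with TNFα, and 676, 640.1 and 693 with both. Here the 7FTA estimate was below 0 without TNFα too, at -0.09 ± 0.04 (adjusted p = 0.327), and it was -0.58 ± 0.04 with TNFα. TNFα raised MMP7 7.39-fold alone and 5.23-fold with 7FTA, an interaction of -0.50 ± 0.05 (adjusted p = 1.94e-08, edgeR's quasi-likelihood test). The combination was 327 ± 33.0 CPM (SE) short of the sum of the separate changes.

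**Figure D3:**
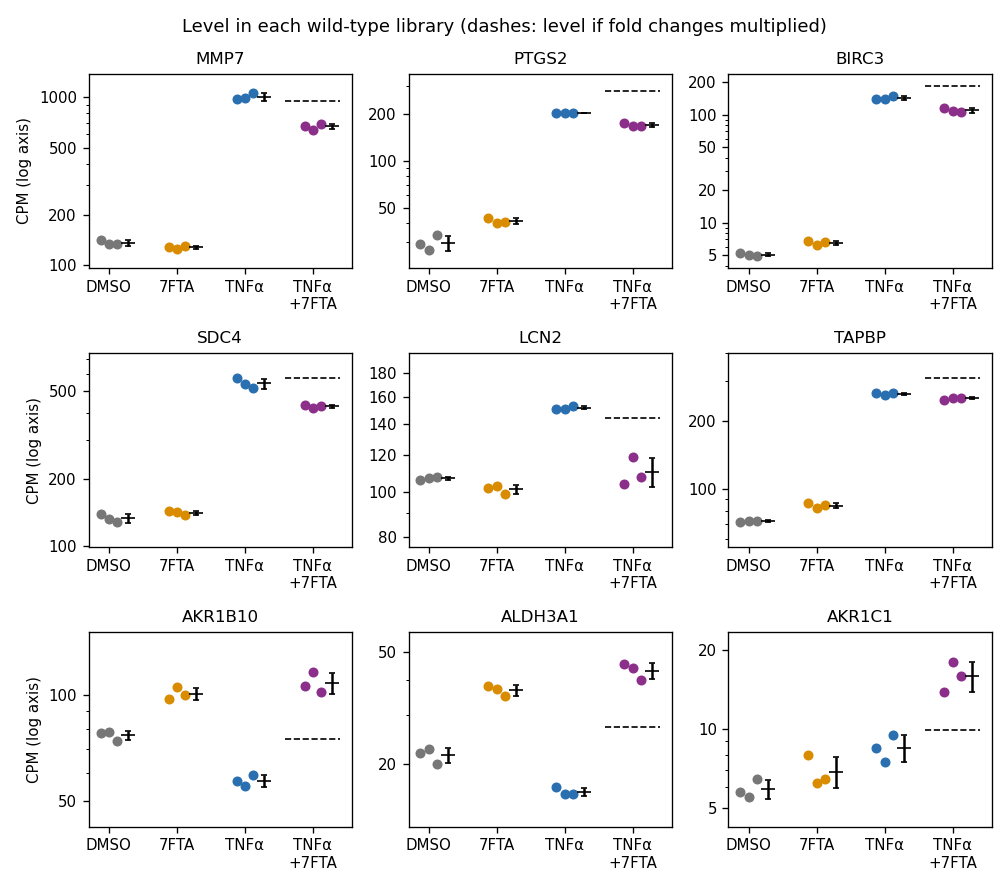
Levels in CPM (log axes that differ between panels) of 9 genes with an interaction in the 12 WT libraries, by treatment; dots are libraries, the cross and bar are mean and SD, and the dashed line is the level with both agents if the fold changes multiplied. The combination lies under the dashed line for MMP7, PTGS2, BIRC3, SDC4, LCN2 and TAPBP and above it for AKR1B10, ALDH3A1 and AKR1C1.

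SDC4 (ENSG00000124145, chr20:45325288-45348424, minus strand), whose promoter is printed above, had a 7FTA effect without TNFα of 0.08 ± 0.04 that missed the threshold (adjusted p = 0.406). It was at 139.7, 132 and 128 CPM with DMSO, 143, 142 and 138 with 7FTA, 573, 538 and 517 with TNFα, and 435, 422 and 429 with both. The DMSO and 7FTA libraries overlapped, while every combination library was below every TNFα library. The interaction was -0.42 ± 0.05 (adjusted p = 2.01e-06, edgeR's quasi-likelihood test), and the induction went from 4.07-fold to 3.04-fold.

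LCN2 (ENSG00000148346), is a secreted protein that binds bacterial iron carriers. Its levels were 106, 107 and 108 CPM with DMSO, 102, 103 and 99.0 with 7FTA, 151, 151 and 153 with TNFα, and 104, 119 and 108 with both. TNFα raised it 1.42-fold alone and 1.09-fold with 7FTA, an interaction of -0.38 ± 0.06 (adjusted p = 0.000329, edgeR's quasi-likelihood test). The combination libraries were all below those with TNFα alone and lay on either side of the DMSO libraries.

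NFKBIA (ENSG00000100906, chr14:35401511-35404749, minus strand), whose protein IκBα is both inhibitor and target of NF-kB, was at 22.9, 24.6 and 23.2 CPM with DMSO and 24.1, 26.8 and 26.2 with 7FTA. It reached 139, 142 and 144 with TNFα and 119, 126 and 121 with both, so the combination was again below all TNFα libraries. The interaction was -0.34 ± 0.08 (adjusted p = 0.031, edgeR's quasi-likelihood test). That call was lost, with adjusted p up to 0.124 and estimates from -0.39 to -0.31 over all 12 such fits, on leaving out DMSO replicate 1 or 3, 7FTA replicate 2 or 3, TNFα replicate 2 or 3, or combination replicate 3. TNFAIP3, the deubiquitinase A20 that ends NF-kB signalling, had an estimate of -0.25 that missed the threshold (adjusted p = 0.842).

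The MHC class I list, which covers the heavy chains, the peptide transporter, the peptide-loading chaperones, the trimming peptidases and the immunoproteasome, had 20 tested members of 21. The interaction was negative in sign for all 20, with a median of -0.30, and it was called for 3, TAPBP, ERAP1 and ERAP2. TNFα alone raised all 20, and 7FTA alone raised 4. 7FTA added to TNFα lowered 2 of the 20 and raised 0. Over all tested genes, 0.199% had a called negative interaction, TNFα alone raised 19.5%, 7FTA alone raised 1.44%, and 7FTA added to TNFα lowered 2.55%.

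TAPBP (ENSG00000231925, chr6:33299694-33314387, minus strand), or tapasin, was at 71.5, 72.2 and 72.3 CPM with DMSO, 86.1, 82.0 and 84.9 with 7FTA, 265, 260.3 and 267 with TNFα, and 249, 254 and 253 with both. 7FTA thus raised it 1.17-fold without TNFα (adjusted p = 0.000134), while with TNFα the difference was -0.07 ± 0.04 (adjusted p = 0.325, both by edgeR's quasi-likelihood test). The interaction was -0.30 ± 0.05 (adjusted p = 0.00122). ERAP2, an aminopeptidase that trims peptides in the endoplasmic reticulum, had the same layout, with 66.5, 68.3 and 67.8 CPM with DMSO, 82.0, 83.2 and 79.0 with 7FTA, 115, 120.3 and 126 with TNFα and 117, 116 and 114 with both. Its 7FTA and DMSO libraries were apart, its TNFα and combination libraries overlapped, and its interaction was -0.33 ± 0.06 (adjusted p = 0.00125). For ERAP2 too, 7FTA raised the level without TNFα (0.27 ± 0.04, adjusted p = 2.75e-05), and its effect with TNFα missed the threshold (-0.06 ± 0.04, adjusted p = 0.499).

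ERAP1, the related aminopeptidase, had an interaction of -0.37 ± 0.08 (adjusted p = 0.0286, edgeR's quasi-likelihood test). This call was lost, with adjusted p up to 0.147, without DMSO replicate 1 or 2, 7FTA replicate 1 or 3, TNFα replicate 3, or combination replicate 2 or 3. Its exons overlap those of CAST on the other strand over 299 of 7945 bases, and the strand setting of the counting is not given in the sources used here. TAP1, a subunit of the peptide transporter, had -0.35 ± 0.11 and missed the threshold (adjusted p = 0.214).

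Genes outside these lists made up the rest of the negative interactions. KRT17 (ENSG00000128422, chr17:41619441-41624842, minus strand), a keratin of stressed and regenerating epithelium, had the most negative value, -0.81 ± 0.13 (adjusted p = 0.00018, edgeR's quasi-likelihood test). Its levels were 7.64, 8.44 and 7.33 CPM with DMSO, 9.97, 11.4 and 8.50 with 7FTA, 21.4, 23.7 and 21.5 with TNFα, and 16.6, 16.0 and 16.0 with both. The groups were apart in both settings, 7FTA above DMSO and the combination below TNFα. Among the 10 tested keratins it was the 1 called, where 0.277% of all tested genes were called. Close pseudogenes make the assignment of KRT17 reads uncertain.

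EPHB6 (ENSG00000106123, chr7:142855061-142871094, plus strand), a kinase-dead ephrin receptor, rose 1.13-fold with TNFα alone. It was at 71.7, 66.2 and 67.2 CPM with DMSO, 75.7, 79.8 and 72.7 with 7FTA, 77.9, 80.5 and 73.3 with TNFα, and 55.7, 50.2 and 62.8 with both. The combination was below every library of the other 3 groups, where the separate changes would add to 84.9 CPM. The interaction was -0.61 ± 0.09 (adjusted p = 4.10e-05, edgeR's quasi-likelihood test).

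The transcription factors ETS1 (-0.47 ± 0.09, adjusted p = 0.00388) and SMAD3 (-0.30 ± 0.05, adjusted p = 0.00122, both by edgeR's quasi-likelihood test), the latter a mediator of TGF-β signals, were induced 5.79-fold and 2.70-fold by TNFα alone and 4.18-fold and 2.20-fold with 7FTA. AKAP12, a scaffold of protein kinase A, had -0.74 ± 0.16 (adjusted p = 0.0217), a call lost without DMSO replicate 2, 7FTA replicate 1 or 3, TNFα replicate 1 or 3, or combination replicate 2 or 3 (adjusted p up to 0.151).

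Other genes with a negative interaction included PHLDB2, MTSS1, CCDC9B, CAV2, EMP1, PRPF38B, CD59, PODXL, DDX17, SERPINA1, ACSL5 and TRIM25, with values from -0.54 to -0.20. CAV2, a caveolar coat protein, CD59, an inhibitor of complement, EMP1 and PODXL are membrane proteins. DDX17 (an RNA helicase, -0.23 ± 0.05, adjusted p = 0.0193) and PRPF38B (a splicing factor, -0.32 ± 0.07, adjusted p = 0.0129) were the 2 not called for TNFα alone (adjusted p = 0.11 and 0.12), and both were lowered by 7FTA in the presence of TNFα by edgeR's quasi-likelihood test. With 1 WT library left out in turn, the call held in 7 of the 12 fits for DDX17 and ACSL5, in 5 for SERPINA1, in 3 for PHLDB2 and CAV2 and in 2 for TRIM25. PRPF38B lost its call without TNFα replicate 2 or 3 or combination replicate 3. The exons of MTSS1 overlap NDUFB9 on the other strand over 677 of 7727 bases. Reads of the partner could have been counted with the gene if strand was not used, which was not tested. LCN2, SMAD3, CAV2, EMP1, PRPF38B, CD59, PODXL, DDX17, SERPINA1, ACSL5 and TRIM25 fall outside the rule for named genes and were named after their values were seen.

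The positive interactions lay in part in the NRF2 list, which holds enzymes of glutathione, NADPH and iron handling and of carbonyl reduction. Of its 28 tested members, 5 were called with a positive interaction (AKR1C2, AKR1C1, AKR1B10, FTL and EPHX1) and 0 with a negative one. The sign was positive for 22 of the 28, with a list median of 0.06. 7FTA alone raised 10 of them and 7FTA added to TNFα raised 16. Over all tested genes, 0.0782% had a called positive interaction, and 7FTA raised 1.44% alone and 2.99% on top of TNFα. Of the 5 called members 3 were aldo-keto reductases, while the classical NRF2 target NQO1 stood at 0.16 ± 0.08 and missed the threshold (adjusted p = 0.62, edgeR's quasi-likelihood test).

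ALDH3A1 (ENSG00000108602, chr17:19737984-19748943, minus strand), an aldehyde dehydrogenase listed among the AhR targets, had a positive value. Its levels were 21.9, 22.7 and 20.1 CPM with DMSO, 38.0, 37.1 and 34.9 with 7FTA, 16.6, 15.6 and 15.6 with TNFα, and 45.4, 43.8 and 39.9 with both. TNFα lowered it in the absence of 7FTA, and the combination was above all other libraries. 7FTA raised ALDH3A1 1.70-fold without TNFα and 2.70-fold with it. The interaction was 0.67 ± 0.10 (adjusted p = 7.09e-05, edgeR's quasi-likelihood test), and it stayed between 0.63 and 0.72 with any 1 WT library left out.

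AKR1B10 (ENSG00000198074, chr7:134527592-134541408, plus strand), a reductase of retinal and lipid aldehydes, was at 77.7, 78.5 and 74.0 CPM with DMSO, 97.0, 105 and 99.9 with 7FTA, 56.8, 54.9 and 59.2 with TNFα, and 106, 116 and 102 with both. TNFα lowered it 1.35-fold, and 7FTA raised it 1.31-fold alone and 1.90-fold on top of TNFα. In the presence of 7FTA the TNFα effect was 0.10 ± 0.07 and missed the threshold (adjusted p = 0.267). The interaction was 0.53 ± 0.10 (adjusted p = 0.0193, edgeR's quasi-likelihood test), a call lost without DMSO replicate 1, 7FTA replicate 1 or 3, or TNFα replicate 2 (adjusted p up to 0.069).

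AKR1C2 and AKR1C1, neighbouring genes on chromosome 10 for hydroxysteroid reductases, are near-identical in sequence, so the split of reads between them is uncertain. AKR1C2 (chr10:4987400-5018031) was at 3.70, 2.74 and 3.51 CPM with DMSO, 4.53, 4.73 and 4.17 with 7FTA, 3.08, 3.76 and 3.22 with TNFα, and 7.08, 9.01 and 8.87 with both. AKR1C1 (chr10:4963253-4983283) was at 5.77, 5.54 and 6.47, then 7.97, 6.23 and 6.48, then 8.49, 7.51 and 9.53, and 13.8, 18.0 and 15.9 CPM in the same order of groups. For both genes the combination was above every other library. The interactions were 0.91 ± 0.20 (adjusted p = 0.0253) and 0.70 ± 0.15 (adjusted p = 0.0186, edgeR's quasi-likelihood test). That of AKR1C2 was lost without DMSO replicate 1 or 3, 7FTA replicate 1 or 3, TNFα replicate 1 or 3, or combination replicate 2 or 3 (adjusted p up to 0.132). That of AKR1C1 was lost without DMSO replicate 3, 7FTA replicate 2 or 3, TNFα replicate 2, or combination replicate 2 (adjusted p up to 0.112).

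FTL (chr19:48965301-48966878, plus strand), the light chain of the iron store ferritin, and TFRC, the transferrin receptor that brings iron into the cell, both had a positive value. FTL was at 2598, 2687 and 2662 CPM with DMSO, 2733, 2869 and 2779.7 with 7FTA, 2454, 2441 and 2597 with TNFα, and 3087, 3318 and 3186 with both. TFRC was at 356, 356 and 407, then 422, 448 and 454, then 316, 313 and 337, and 457, 469 and 456 CPM. In each case the combination had the highest 3 libraries of the 12. The interactions were 0.28 ± 0.05 for FTL (adjusted p = 0.00122) and 0.28 ± 0.06 for TFRC (adjusted p = 0.0217, edgeR's quasi-likelihood test), the latter lost without DMSO replicate 3, 7FTA replicate 1, TNFα replicate 1 or 2, or combination replicate 2. FTL has many processed pseudogenes, so its count is uncertain in level.

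The other positive genes were EPHX1, an epoxide hydrolase (0.25 ± 0.06, adjusted p = 0.0464), and DCXR, SLC25A1, NT5DC2 and PIGP, from 0.20 to 0.55. PIGP, part of the complex that starts the synthesis of GPI anchors, differed from the rest in that 7FTA alone lowered it. It was at 14.6, 12.7 and 14.3 CPM with DMSO, 10.1, 12.5 and 10.7 with 7FTA, 11.3, 10.9 and 9.95 with TNFα, and 13.2, 11.8 and 12.2 with both. Either agent alone lowered PIGP, and the combination overlapped the DMSO range. Its interaction was close to the threshold at 0.55 ± 0.13 (adjusted p = 0.0492, edgeR's quasi-likelihood test), and the call held in 3 of the 12 fits with 1 WT library left out, those without DMSO replicate 2, 7FTA replicate 2 or combination replicate 2. Of the same 12 fits the call held in 3 for EPHX1, 4 for SLC25A1, 5 for NT5DC2 and 8 for DCXR.

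Classical AhR targets gave no called interaction other than ALDH3A1 among 14 tested list members, of which 8 had a negative sign (median -0.05). Over all tested genes 0.277% were called and 49.5% had a negative sign. 7FTA raised 9 of the 14 without TNFα and 10 with it, against 1.44% and 2.99% of all tested genes. CYP1A1 had 4, 4 and 3 counts with DMSO, 294, 176 and 237 with 7FTA, 5, 6 and 0 with TNFα, and 98, 160 and 107 with both. Its interaction was -1.20 ± 0.70 (adjusted p = 0.705, edgeR's quasi-likelihood test). CYP1B1, its relative in the same enzyme family, was at 6.81, 6.75 and 6.24 CPM with DMSO and 24.2, 23.7 and 22.4 with 7FTA, and at 2.89, 2.58 and 3.58 with TNFα and 8.68, 10.4 and 9.27 with both. Its fold rise with 7FTA was 3.55 without TNFα and 3.16 with it, a difference that missed the threshold (-0.17 ± 0.16, adjusted p = 0.877).

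Chemokines and cytokines gave 0 called interactions among 22 tested members, where 0.277% of all tested genes were called. 7FTA added to TNFα lowered 9 of the 22 and raised 1. The shares over all tested genes were 2.55% lowered and 2.99% raised. Several members had next to no counts without TNFα, so their signs are not counted here. IL32, a cytokine-like protein, was at 0.478, 0.580 and 0.374 CPM with DMSO, 0.610, 0.120 and 0.644 with 7FTA, 65.6, 59.7 and 69.5 with TNFα, and 36.4, 40.5 and 38.5 with both. The combination libraries were all below TNFα alone, and the interaction, with under 1 CPM in each library without TNFα, had a wide error at -0.83 ± 0.40 (adjusted p = 0.602, edgeR's quasi-likelihood test). CXCL8, the neutrophil attractant interleukin-8, was at 26.4, 23.2 and 20.2 CPM with DMSO, 18.2, 25 and 19.2 with 7FTA, 1053, 1032 and 1011 with TNFα, and 782, 824 and 744 with both. Its induction was 44.4-fold alone and 38.2-fold with 7FTA, and the interaction missed the threshold (-0.22 ± 0.15, adjusted p = 0.799).

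Interferon-stimulated genes, the antiviral effectors that TNFα also induces, gave 0 called interactions among 51 tested members. The sign was negative for 36, and the median was -0.15. Over all tested genes 0.277% were called and 49.5% had a negative sign. TNFα alone raised 42 of the 51. 7FTA added to TNFα lowered 23 and raised 0, while 7FTA alone lowered 2 and raised 1. Of all tested genes, TNFα alone raised 19.5%. 7FTA lowered 2.55% and raised 2.99% on top of TNFα, and lowered 0.605% and raised 1.44% alone. PARP14, an ADP-ribosyltransferase of this list, had -0.42 (adjusted p = 0.152, edgeR's quasi-likelihood test), and the ubiquitin-like ISG15 had -0.19 (adjusted p = 0.645). GPRC5A itself, the retinoic acid-induced receptor targeted in the knockout line, was at 202, 206 and 213 CPM with DMSO, 211, 212 and 213 with 7FTA, 243, 243 and 249 with TNFα, and 249, 231 and 248 with both. TNFα raised GPRC5A 1.18-fold, and its interaction was -0.05 ± 0.05 (adjusted p = 0.89).

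**Figure D4:**
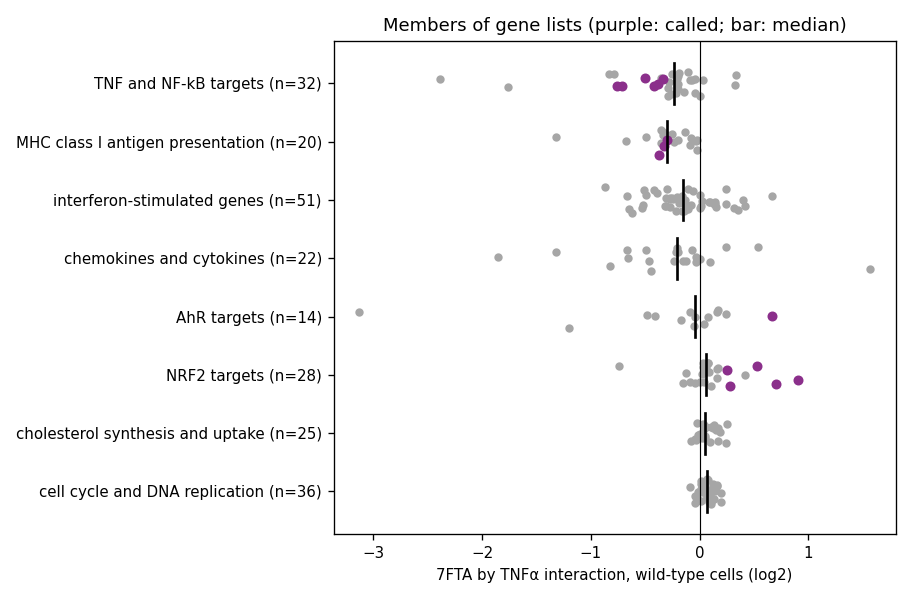
Interaction in WT cells (log2) of the tested members of the gene lists, 1 point per gene, with the list median as a bar and called genes in purple. The MHC class I list lies wholly below 0 (median -0.30, 20 genes) and the TNF and NF-kB list mostly so (median -0.23, 32 genes), while the NRF2 list has a median of 0.06. Members with hardly any counts without TNFα, such as IL32, have wide errors that are not drawn.

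To describe the interaction over all TNFα-responsive genes without choosing them on the same libraries, genes were sorted by their mean TNFα effect in the 12 knockout libraries. The 363 genes that TNFα raised at least 2-fold there (2.58% of those tested) had a median WT interaction of -0.19, with a negative sign for 265 (73.0%). Of them 13 were called with a negative interaction and 0 with a positive one, against 0.199% and 0.0782% of all tested genes. The 109 genes that TNFα lowered at least 2-fold (0.775%) had a median of 0.09, with 45.0% negative and 0 called. In steps of the knockout TNFα effect, the median WT interaction was 0.00 for the 12492 genes between -0.5 and 0.5, -0.10 for 505 genes between 0.5 and 1, -0.14 for 244 between 1 and 2, -0.26 for 74 between 2 and 3, and -0.49 for 51 above 3. In that last step 84.3% of the genes had a negative sign, and the quartiles were -0.85 and -0.17. On the other side the median was 0.06 for 570 genes between -1 and -0.5, and 0.12 for 115 between -2 and -1. Of the 51 genes above 3, 1 was called, against 3 of the 74, 9 of the 244 and 7 of the 505 with a negative call in the steps below. The top step holds genes such as IL32 with hardly any counts without TNFα. They passed the filter through the TNFα groups, and their interactions have wide errors. The median of the step is thus a description of fitted values. The 363 genes overlap this step, so their median and share of negative signs are such a description too. The lowest step, below -2, held 8 genes with a median of -0.13 and is thinly filled. In the top step the median 7FTA effect in WT cells was 0.03 without TNFα and -0.49 with it.

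**Figure D5:**
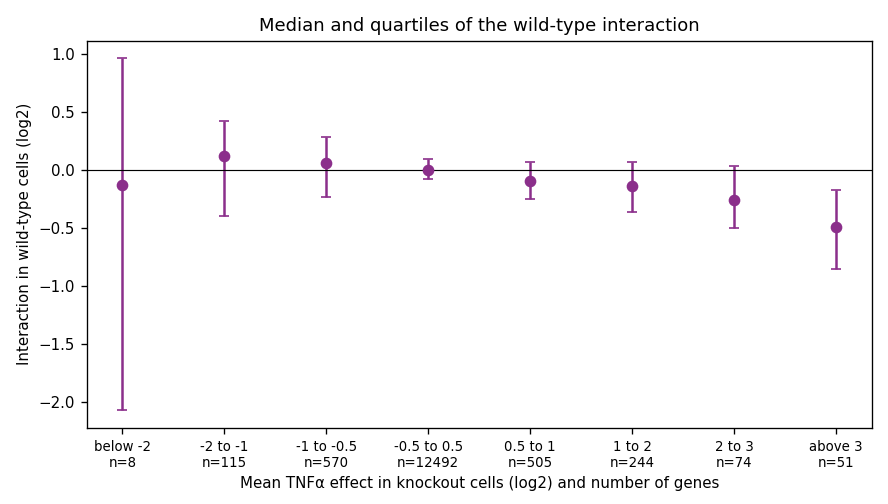
WT interaction (log2) of all tested genes, grouped by their mean TNFα effect in the knockout libraries (log2); points are medians, bars the quartiles. The median was 0.12 for genes that TNFα lowered by 1 to 2 log2 units and -0.49 for the 51 genes it raised by more than 3. Of those 51 genes 1 was called, and some, such as IL32, have hardly any counts without TNFα and wide errors. The lowest step of 8 genes is thinly filled.

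Genes that responded to 7FTA itself had medians close to 0, but a larger share of them was called than of all tested genes (0.277%). The 698 genes that 7FTA raised in the knockout cells (4.96% of those tested) had a median WT interaction of 0.02, with 43.0% negative, and 7 of them were called with a positive and 5 with a negative interaction. The 579 that it lowered (4.12%) had a median of -0.03, with 57.9% negative, 6 called negative and 0 positive. The shares called over all tested genes were 0.199% negative and 0.0782% positive.

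The direction was also read on a linear scale, since agents that multiply do not add. The level with both agents was below the sum of the separate changes in CPM for 28 of the 28 genes with a negative interaction and above it for 11 of the 11 with a positive one, in each case by more than 2 SE. The genes were called on these same libraries, so these counts are a description.

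The knockout cells give the same interaction in 12 other libraries. It was called for 81 genes there (17 positive, 0.121%, and 64 negative, 0.455%), 0.576% of those tested. The WT and knockout lists shared 14 genes, 35.9% of the WT list and 17.3% of the knockout list, all with the same sign. Of the 39 WT genes, 37 had the same sign in the knockout, the exceptions being CAV2 and EMP1, against 57.8% of all tested genes. MMP7 had -0.38 ± 0.05 in the knockout (adjusted p = 4.58e-06), SDC4 -0.44 ± 0.05 (adjusted p = 1.10e-06), PTGS2 -0.50 ± 0.10 (adjusted p = 0.00274) and ALDH3A1 0.51 ± 0.09 (adjusted p = 0.00123), all by edgeR's quasi-likelihood test. For the lists, the knockout median was -0.19 for the TNF and NF-kB targets with 6 called negative. It was -0.31 for the MHC class I genes with 10 and -0.48 for the interferon-stimulated genes with 21. The NRF2 list had a knockout median of 0.07, with 1 gene called positive and 0 negative. Its sign was negative for 12 of 28 members in the knockout, against 6 in WT cells.

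The difference between the 2 interactions was called for 0 genes by edgeR's quasi-likelihood test, with 611 at an unadjusted p under 0.05. DESeq2 called 0 (462 at that unadjusted level) and limma voom 0 (637). The smallest adjusted p, 0.309, was that of EMP1, a membrane protein at 95.8, 90.5 and 97.8 CPM with DMSO, 107, 104 and 103 with 7FTA, 178, 161 and 175 with TNFα, and 157, 142 and 155 with both in WT cells. Its interaction was -0.33 ± 0.06 in WT and 0.07 ± 0.06 in knockout cells. SMAD3 (-0.03 ± 0.05 in the knockout) was also near 0 there, with an adjusted p of 0.953 for the difference. No interaction described here was therefore shown to be particular to WT cells.

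The number of called genes depended on single libraries. With 1 WT library left out in turn, 23 to 63 genes were called, 3 to 19 of them positive and 18 to 44 negative. The total was 23 without 7FTA replicate 3, 25 without combination replicate 3 and 63 without combination replicate 1. None of the 39 genes changed sign in these 12 fits or in the 8 other fits. The call held in all 20 for 17 of the 28 negative genes (among them KRT17, BIRC3, PTGS2, EPHB6, MTSS1, MMP7, CCDC9B, ETS1, SDC4, LCN2, ERAP2, EMP1, TAPBP, SMAD3, CD59 and PODXL) and for 2 of the 11 positive ones (FTL and ALDH3A1).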

How the data were processed

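Gene expression was measured by poly(A) RNA sequencing (100-base single-end reads) in 24 libraries, of which the 12 WT libraries form the interaction. Per the labels, the authors deposited raw gene counts. Tools listed in the submitters' processing notes, with no role given, are DESeq2 1.20.0, featureCounts 1.6.4 and STAR 2.6.1d, with the build GRCh38. The strand setting and annotation are not given in the sources used here. The table held 60623 genes, 30061 with a count.

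Counts were used as deposited. In R 4.3.3, edgeR 4.0.16 (filterByExpr with a minimum count of 10, TMM factors 0.944 to 1.05, robust quasi-likelihood fit with 1 mean per group on all 24 libraries, two-sided) tested 14059 genes, with Benjamini-Hochberg adjustment over all of them and calls under 0.05. The SE follows from the test, as the log2 value over the root of F. Levels are CPM scaled with TMM factors. The alternatives, edgeR without a filter, with a minimum count of 50, with RLE factors, not robust, with a replicate block or on WT libraries alone, limma 3.58.1 voom, DESeq2 1.42.0 and leaving out each library, are in the closing section. Pairs of libraries within a WT group were further apart than counting allows (chi-square over degrees of freedom, 2.07 to 5.53), so no pair looked like 1 library deposited a second time. The scripts were also tested on simulated data.

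The members, gene lists and tests were chosen with earlier results of these data known. Named genes are the 12 largest interactions of each sign among called genes with a mean log2 CPM of at least 1, filled up by smallest p where fewer were called, fixed genes of the pathways, and the 3 members of each list with the smallest p; not all are printed. Gene positions are from GENCODE 29 by gene identifier, promoters from RefSeq. Some genes that passed the test are counted but not reported by name here.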

Additional observations from a re-analysis of the deposited data

How the results depend on the processing

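Against the 39 called genes (28 negative, 11 positive), edgeR without a filter on low counts called 65 (25 positive) and DESeq2 called 19 positive genes. Leaving out 1 WT library gave 23 to 63 in all, 3 to 19 positive and 18 to 44 negative. For 7FTA alone such fits gave 182 to 214 (288 with all libraries), and for 7FTA added to TNFα they ran from 501 to 712 (779 with all). The replicate block called 62 genes (20 positive) in WT cells, all 39 among them, 158 in knockout cells (81 without it) and 1 for the difference between the cell types. Numbers were not treated as pairs in the reported fit. The 18 correlations of residuals between same-numbered WT libraries ran from -0.0347 to 0.0868, while 8 of the 12 libraries were closest to their own number. These values do not settle whether the numbers mark pairs. Without the filter the knockout interaction called 123 genes and the difference 5. Leaving out 1 knockout library gave 49 to 98. CXCL10, at -0.23, ran from -0.64 to 0.20 on leaving out 1 WT library, with the changed sign without DMSO replicate 1, at levels under 1 CPM without TNFα. The cause of these shifts was not tested. By direction, 7FTA alone lowered 143 genes with the block and 44 to 56 with 1 library left out (85 as reported). 7FTA added to TNFα raised 255 without TNFα replicate 2 and 280 without combination replicate 3 (421), and lowered 231 without TNFα replicate 3 and 221 without combination replicate 3 (358). The knockout interaction (17 positive, 64 negative) gave 47 and 111 with the block, 100 negative without the filter, and down to 10 and 38 with 1 library left out. Over the 8 other fits, calls were also lost for AKR1C2 with voom (adjusted p = 0.155), AKR1C1 with voom and on WT libraries alone (up to 0.0623), NFKBIA with voom and the non-robust fit (up to 0.109), ERAP1 with voom and on WT libraries alone (up to 0.0654), PIGP with all 3 of these (up to 0.0891), EPHX1 with voom and the non-robust fit (up to 0.0738), AKAP12 with the non-robust fit (0.0504) and TFRC on WT libraries alone (0.0628). They held in 4 of these 8 fits for CAV2 (up to 0.101), 5 for PHLDB2 (0.0878), 6 for SERPINA1 (0.0601) and TRIM25 (0.114), and 7 for SLC25A1 (0.0708).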

Other observations

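Among lists with 0 called genes in WT cells was that of metallothioneins, small proteins that bind zinc and copper, plus the zinc exporter SLC30A1. Of its 6 tested members 5 had a positive sign, and the median was 0.31. The negative sign was that of SLC30A1, at -0.09. MT1G was at 27.7, 24.4 and 32.2 CPM with DMSO, 15.2, 12.7 and 18.4 with 7FTA, 8.19, 9.33 and 10.3 with TNFα, and 11.4, 10.8 and 14.1 with both. Either agent alone lowered it, and the combination libraries were above those with TNFα alone, a difference that missed the threshold (adjusted p = 0.415). Its interaction was 1.24 ± 0.27 and missed the threshold (adjusted p = 0.0793, edgeR's quasi-likelihood test), while in knockout cells it was 1.40 ± 0.27 (adjusted p = 0.0191).

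The cholesterol synthesis list had a positive sign for 18 of 25 members (median 0.05). 7FTA raised 11 of the 25 without TNFα and 18 with it, against 1.44% and 2.99% of all tested genes. MSMO1, a sterol demethylase, had the smallest p of the list at 0.25 (adjusted p = 0.0879, edgeR's quasi-likelihood test). Genes of the cell cycle and DNA replication had a positive sign for 30 of 36 and a median of 0.07. TNFα alone lowered 34 of the 36, against 18.9% of all tested genes. The 13 mitochondrially encoded genes all had a negative sign with a median of -0.18, and 0 were called. Their share of the counts was 0.604%, 1.15% and 0.638% with TNFα alone and 0.612%, 0.845% and 0.758% with both. The high value with TNFα alone is that of replicate 2. A single library can set the sign of all 13 together, and the sign without it was not tested.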
